A study of Mus musculus with 6 samples.

Results

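The killer lectin-like receptors described here were 10 genes, Klrc1, Klrc2, Klrc3, Klrd1, Klrk1, Klrg1, Klre1, Klrb1c, Klra7 and Klra9, chosen by name from the 23420 rows of a table of transcript levels. All 10 were present in the table. The 6 libraries were RNA sequencing of polyadenylated RNA from induced T (iT) cells sorted from spleen, 3 of CD4 single-positive (CD4SP) iT cells and 3 of CD8 single-positive (CD8SP) iT cells, with 1000 cells a library. In both groups the iT cells came from iR9 pluripotent stem cells on a C57BL/6 background, which carry an rtTA-driven, doxycycline-inducible Runx1-p2a-Hoxa9 cassette in Rosa26. Doxycycline was given during the culture that made blood progenitors. The study describes transplantation without doxycycline, and also hosts fed doxycycline, whose gut and lung were examined. Which applied to the hosts of these libraries was not given in the sources used here. The host mice in both groups were irradiated B-NDG mice, a strain that lacks T, B and NK cells of its own but keeps myeloid cells. The study's text describes young adult hosts, spleens taken some weeks after transplantation and biological replicates, which the labels do not state. Whether each library came from a separate mouse was not given in the sources used here, so p-values measure the spread between these samples only. No T cells from unmanipulated mice were analysed here.

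Killer lectin-like receptors are membrane proteins of natural killer (NK) cells that are also found on some T cells, above all on antigen-experienced and memory-phenotype CD8 T cells. Klrd1 (CD94) is a partner chain that forms heterodimers with Klrc1 (NKG2A, inhibitory) or with Klrc2 (NKG2C) and Klrc3 (NKG2E), and these dimers bind the nonclassical MHC class I protein Qa-1, encoded by H2-T23. Klrk1 (NKG2D) pairs with the adaptor Hcst (DAP10) and detects stress-induced ligands. Klrg1 binds cadherins, Klrb1c is the NK1.1 antigen of C57BL/6 mice, Klre1 is a further receptor of the family, and Klra7 and Klra9 belong to the Ly49 receptors, many of which bind classical MHC class I.

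The genes lie on mouse chromosome 6 (GRCm38, GENCODE M21). Of them, 9 fall within the 1.455 Mb from Klrb1c (chr6:128778485-128789215) to Klra7 (chr6:130218605-130233322), the NK gene complex. In between are Klre1 (chr6:129577905-129585827), Klrd1 (chr6:129591782-129598775), Klrk1 (chr6:129610323-129623864), Klrc3 (chr6:129639064-129643337), Klrc2 (chr6:129647496-129660689), Klrc1 (chr6:129666015-129678973) and Klra9 (chr6:130178675-130193112). Klrg1 (chr6:122270596-122282882) stands apart on the same chromosome, with its start at -6.508 Mb from that of Klrb1c. The Klrc genes are near-identical copies of each other, and short reads from them can be assigned to the wrong member. The longest Klrc1 transcript aligned with a Klrc2 transcript over 1163 nt at 98.9% identity, and the longest Klrc3 transcript with a Klrc2 transcript over 715 nt at 96.2%. The longest Klrc2 transcript aligned with a Klrc3 transcript over 321 nt at 99.7%. Their coding sequences agreed at 83.7% of aligned positions for Klrc1 against Klrc2, 85.5% for Klrc1 against Klrc3 and 95.3% for Klrc2 against Klrc3. The 90-base coding stretch that was most alike in all 3 genes, among those within 1 exon, is given first, from the GENCODE M21 transcripts, because a read from it cannot be placed with certainty. Capitals mark bases that differ from Klrc1.
Klrc1 (chr6:129674872-129674961, minus strand): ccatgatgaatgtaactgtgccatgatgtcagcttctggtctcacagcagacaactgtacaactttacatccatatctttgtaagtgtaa
Klrc2 (chr6:129656384-129656473, minus strand): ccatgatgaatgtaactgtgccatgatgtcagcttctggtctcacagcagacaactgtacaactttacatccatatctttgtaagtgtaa
Klrc3 (chr6:129639098-129639187, minus strand): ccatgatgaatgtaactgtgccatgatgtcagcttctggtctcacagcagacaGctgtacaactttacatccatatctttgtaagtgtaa
The 60-base stretch that differed most from Klrc1, among those that aligned without gaps within 1 exon of each gene, is given next with the same use of capitals. Klrc2 and Klrc3 each carried 20 differences from Klrc1 there, in the first part of the coding sequence.
Klrc1 (chr6:129678836-129678895, minus strand): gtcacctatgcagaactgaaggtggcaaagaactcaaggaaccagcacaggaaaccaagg
Klrc2 (chr6:129660493-129660552, minus strand): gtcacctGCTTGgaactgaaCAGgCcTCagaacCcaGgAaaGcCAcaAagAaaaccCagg
Klrc3 (chr6:129643225-129643284, minus strand): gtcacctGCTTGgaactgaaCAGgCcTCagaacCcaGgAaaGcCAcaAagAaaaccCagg
Among the other members, Klra7 shared 656 nt at 96.0% identity with the pseudogene Klra13-ps. Klra9 shared 1238 nt at 95.8% with Klra3, 823 nt at 97.0% with Klra10 and 218 nt at 95.4% with Klra8. The values of the Klrc and Klra genes are therefore uncertain as single members, and sums over them are given beside them.

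Values are TPM, a measure of transcript abundance set per transcript length, so levels of different genes can be compared within a library. Depth is unknown from TPM, and a value of 0 is reported as listed at 0. The libraries listed 9971 to 10649 genes at 1 TPM or more. CD8SP replicates 1 and 2 stood closer to each other (Pearson r 0.987 over tested genes) than any other pair of libraries and were kept as 2 samples. With their mean taken as 1 sample, 8 receptors were called, as many as with 3 samples. Ribosomal protein genes took 23.1% to 27.8% of TPM in CD4SP libraries against 30.8% to 34.6% in CD8SP libraries, and the median tested gene was lower in CD8SP by 0.28 on the log2 scale. The sorted populations were checked by their own markers: summed Cd8a and Cd8b1 was 24.9 to 38.9 TPM in CD4SP libraries against 3236 to 3562 TPM in CD8SP libraries, and summed Cd4, Zbtb7b and Cd40lg was 359 to 410 TPM in CD4SP libraries against 2.0997 to 3.29 TPM in CD8SP libraries.

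Which killer lectin-like receptors differed between CD8SP and CD4SP iT cells was asked first. CD8SP iT cells had higher transcript levels of Klrd1, Klrc1, Klrc2, Klre1, Klrb1c, Klra7 and Klra9, and CD4SP iT cells had a higher level of Klrg1. Klrk1 did not pass the test and Klrc3 was listed at 0 in all 6 libraries. In the limma fit across 10476 genes, 9 of the 10 genes passed the filter of 1 TPM in at least 3 libraries. Of those, 7 were called higher in CD8SP (adjusted p under 0.05 and over 2-fold), where 1.80% of all tested genes were called, and 1 was called higher in CD4SP, where 7.92% of all tested genes were called. In either direction the call was made for 9.73% of tested genes. Klrc2, Klra7 and Klra9 passed the filter through the CD8SP libraries alone. Klrc1 and Klrb1c, at 0 and 0.682 TPM in CD4SP replicate 2, also needed CD8SP libraries to pass. The counts therefore describe the genes and are no test of the family. By library values, all CD8SP libraries were above all CD4SP libraries for 8 of the 10 genes, an order shown by 6.61% of tested genes, and below them for Klrg1, an order shown by 36.6%. The median log2 fold change, CD8SP minus CD4SP, was 2.47 over the 9 genes, beside -0.28 over all tested genes. It was 2.13 without Klrc2, Klra7 and Klra9.

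**Figure D1:**
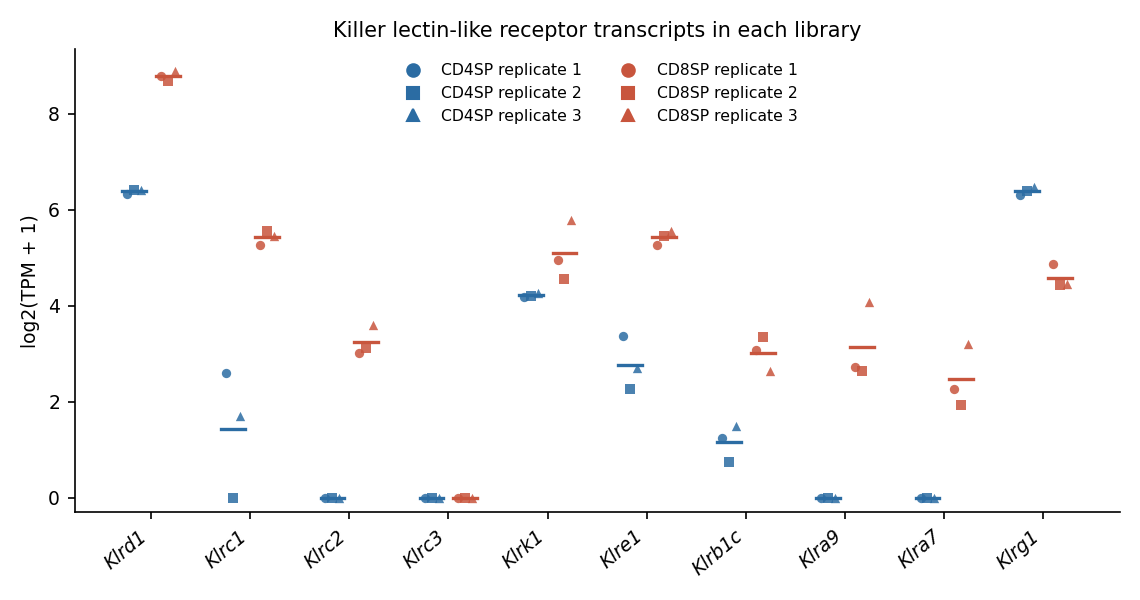
Level of each of the 10 genes as log2(TPM + 1) in every library, with CD4SP in blue, CD8SP in red, the shape giving the replicate number and the bar the mean of 3 libraries. The groups do not overlap for 9 genes: CD8SP is above CD4SP in all of them but Klrg1, and Klrc3 is at 0 throughout.

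Klrd1, the CD94 partner chain, was the most abundant of these receptors in CD8SP iT cells. Its level was 79.4, 84.1 and 83.4 TPM in CD4SP replicates 1 to 3, and 439, 411 and 476 TPM in CD8SP replicates 1 to 3. The CD4SP libraries lay close together and far below every CD8SP library. The means were 82.3 ± 2.54 TPM in CD4SP libraries against 442 ± 32.4 TPM in CD8SP (SD, n = 3 each), a ratio of 5.37. The log2 fold change was 2.41 with a standard error of 0.11 (limma, Benjamini-Hochberg adjusted p = 6.43e-06), the smallest adjusted p of the 9 genes.

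Klrc1, the inhibitory NKG2A chain, was listed at 5.02, 0 and 2.25 TPM in CD4SP replicates 1 to 3 and at 37.6, 45.8 and 42.4 TPM in CD8SP replicates 1 to 3. The 3 CD8SP libraries lay well above every CD4SP library, and CD4SP replicate 2 was the only one of the 6 at 0. The log2 fold change was 3.99 with a standard error of 0.55 (limma adjusted p = 0.0022), and it rose to 5.30 (adjusted p = 0.024) with a pseudocount of 0.1. It was 3.27 without CD4 replicate 2, the library at 0, and 4.57 without CD4 replicate 1. Klrc2, the activating NKG2C chain, was at 0 in each CD4SP library and at 7.07, 7.69 and 11.04 TPM in CD8SP replicates 1 to 3 (adjusted p = 0.00015). No fold is given for a gene listed at 0 in a whole group. Klrc3, the NKG2E chain, was at 0 in every library of both groups, although Klrc2 and Klrc3 are the most alike pair of the family in coding sequence.

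Because reads can pass between the Klrc genes, their levels were also summed. The sum was 5.02, 0 and 2.25 TPM in CD4SP libraries against 44.7, 53.5 and 53.5 TPM in CD8SP replicates 1 to 3. The groups did not overlap in this sum. How reads were split among the Klrc genes was not tested. With the Klrc genes as 1 row in the fit, the log2 fold change was 4.25 with a standard error of 0.55 (limma adjusted p = 0.0016). Klrc1 was the main contributor in CD8SP, and Klrc2 made up 15.8%, 14.4% and 20.6% of the sum in replicates 1 to 3. Partner chain and Klrc chains were not listed at matched levels: Klrd1 exceeded the Klrc sum by 7.69 to 9.83 times in the CD8SP libraries. Reads shared by the Klrc genes would lower this sum if they were left uncounted, and how they were handled was not given.

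Klre1, which lies next to Klrd1, measured 9.28, 3.77 and 5.46 TPM in CD4SP replicates 1 to 3 and 37.2, 43.0 and 46.2 TPM in CD8SP replicates 1 to 3. The lowest CD8SP library was above the highest CD4SP library. The log2 fold change was 2.66 with a standard error of 0.28 (limma adjusted p = 0.00053), and the ratio of the means was 6.83. In CD8SP its range, 37.2 to 46.2 TPM, nearly matched that of Klrc1, 37.6 to 45.8 TPM.

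Klrb1c, the NK1.1 antigen, measured 1.37, 0.682 and 1.82 TPM in CD4SP replicates 1 to 3 and 7.49, 9.14 and 5.22 TPM in CD8SP replicates 1 to 3. It was low in both groups but did not overlap between them. The log2 fold change was 1.86 with a standard error of 0.30 (limma adjusted p = 0.0043).

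Klrk1, the NKG2D receptor, measured 17.0, 17.5 and 18.2 TPM in CD4SP replicates 1 to 3 and 29.7, 22.6 and 54.2 TPM in CD8SP replicates 1 to 3. The CD4SP values hardly varied, and the CD8SP values spread widely, with replicate 3 far above the others. The groups did not overlap all the same. The log2 fold change was 0.88 (95% confidence interval 0.23 to 1.54) and the adjusted p of 0.060 from limma missed the threshold, so neither a difference over 2-fold nor equal levels could be shown. The value passed both thresholds after median-of-ratios rescaling (1.18, adjusted p = 0.042), after quantile normalization (1.20, adjusted p = 0.039) and without CD8 replicate 2 (1.15, adjusted p = 0.033). Without CD8 replicate 3 it was 0.54 (adjusted p = 0.11).

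Klrg1, the cadherin receptor, was the exception in direction. It measured 77.7, 82.4 and 87.7 TPM in CD4SP replicates 1 to 3 and 28.3, 20.5 and 20.9 TPM in CD8SP replicates 1 to 3. Every CD4SP library was above every CD8SP library. The means were 82.6 ± 5.02 TPM in CD4SP libraries against 23.2 ± 4.37 TPM in CD8SP (SD, n = 3 each), so the CD4SP mean was 3.56 times the CD8SP mean. The log2 fold change was -1.80 with a standard error of 0.16 (limma adjusted p = 0.00026), beyond the shift of -0.28 of the median gene.

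**Figure D2:**
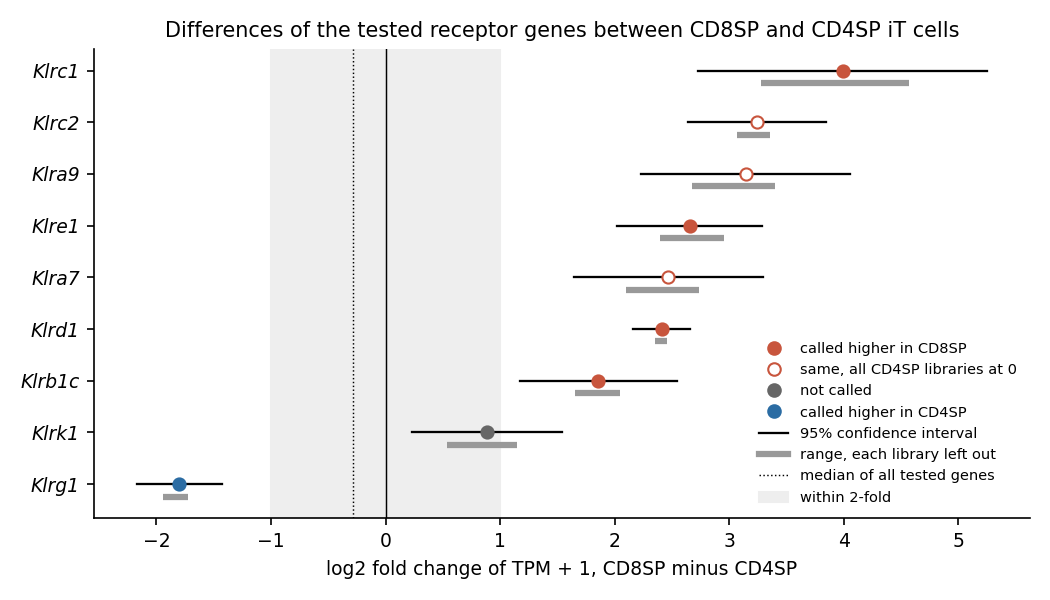
Log2 fold change of TPM + 1 (CD8SP minus CD4SP) for the 9 tested genes, with black lines for 95% confidence intervals, grey lines for the range when each library is left out in turn, a grey band for changes within 2-fold and a dotted line for the median of all tested genes. Open points are genes with all CD4SP libraries at 0, whose value depends on the pseudocount and is no bound. Klrg1 at -1.80 is the only gene to the left of 0, and Klrk1 at 0.88 the only one inside the band.

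The Ly49 genes Klra7 and Klra9 were at 0 in all 3 CD4SP libraries. Klra7 was at 3.82, 2.82 and 8.19 TPM in CD8SP replicates 1 to 3 (limma adjusted p = 0.0028). Klra9 was at 5.56, 5.25 and 15.9 TPM in CD8SP replicates 1 to 3 (adjusted p = 0.0014). Both were highest in replicate 3, by more than the other 2 libraries differed from each other.

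Since the Ly49 genes resemble each other, all 21 rows named Klra were examined, a set chosen after the values were seen. In CD4SP, 1 row was above 0 in any library, Klra2 at 0.177 TPM in replicate 3. In CD8SP, 10 rows were above 0 in at least 1 library and 6 in all 3 libraries, and 10 rows were at 0 in all 6 libraries. Their sum was 0, 0 and 0.177 TPM in CD4SP libraries against 27.4, 34.2 and 58.7 TPM in CD8SP replicates 1 to 3. The 5 rows that passed the filter, Klra5, Klra6, Klra7, Klra9 and Klra13-ps, did so through the CD8SP libraries and were called higher there. Klra5 was at 7.20, 8.40 and 2.99 TPM in CD8SP (adjusted p = 0.0016), and Klra6 was at 2.77, 6.04 and 9.24 TPM (adjusted p = 0.0023). Klra5 was lowest in the replicate in which Klra6, Klra7, Klra9 and Klra13-ps were highest. Klra13-ps, the pseudogene that resembles Klra7, was at 5.22, 9.33 and 17.3 TPM, and reads from it and Klra7 may have been exchanged.

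**Figure D3:**
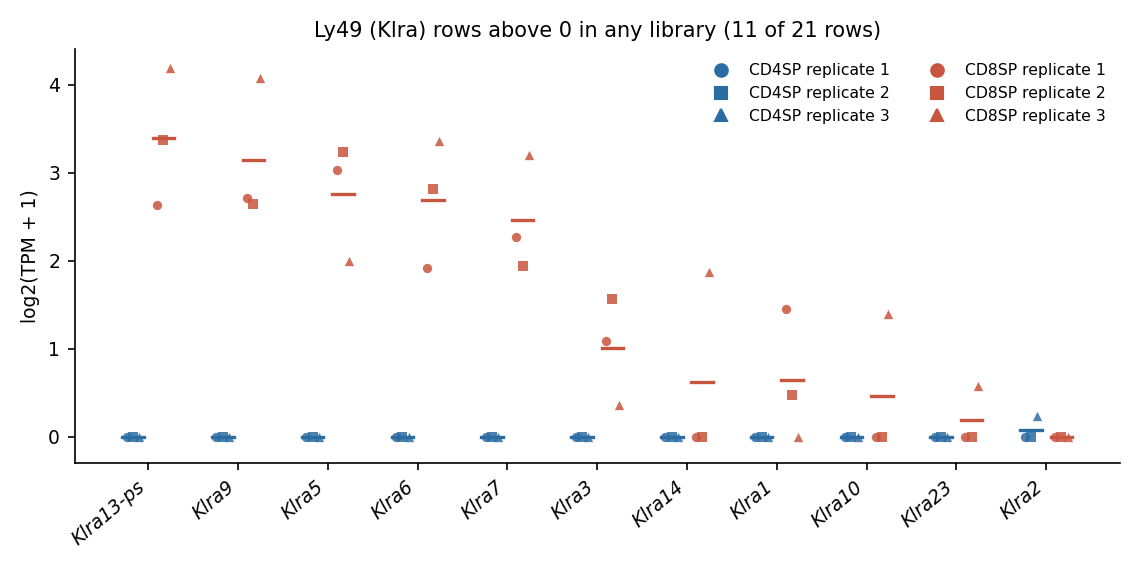
Level as log2(TPM + 1) of the 11 Ly49 rows above 0 in any library, CD4SP in blue and CD8SP in red, with the shape giving the replicate number and the bar the mean. All CD4SP points are at 0 but Klra2 in replicate 3, at 0.177 TPM, and CD8SP replicate 3 (triangles) is the highest for Klra13-ps, Klra9, Klra6, Klra7, Klra10, Klra14 and Klra23 and the lowest CD8SP point for Klra5, Klra3 and Klra1.

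How the 10 genes divided the summed receptor transcript was compared next. The sum was 189.7, 188.4 and 198.8 TPM in CD4SP replicates 1 to 3 and 596, 568 and 680 TPM in CD8SP replicates 1 to 3. The means were 192 ± 5.67 and 615 ± 58.2 TPM (SD, n = 3 each), a ratio of 3.20 (exact two-sided permutation p = 0.1, the smallest that 3 libraries against 3 allow). Klrd1 carried most of the gap, and without it the ratio was 1.57. Klrd1 made up 41.8% to 44.6% of the sum in CD4SP and 70.0% to 73.7% in CD8SP libraries. Klrg1 made up 40.9% to 44.1% in CD4SP and 3.07% to 4.74% in CD8SP libraries. The ratio of Klrg1 to Klrd1 was 0.978 to 1.05 in CD4SP and 0.0439 to 0.0643 in CD8SP libraries (exact two-sided permutation p = 0.1). As both genes are read in the same library, multiplying a library by a constant leaves this ratio as it is.

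**Figure D4:**
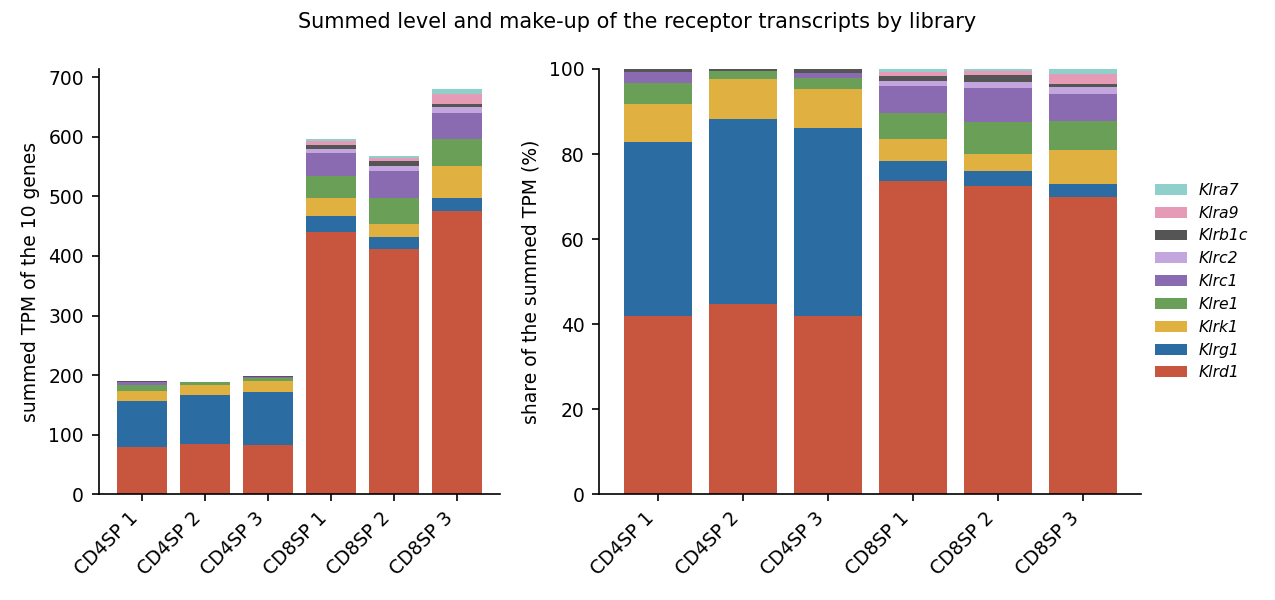
Left, summed TPM of the 10 genes in each library; right, each gene's share of that sum in percent. Klrd1 and Klrg1 together fill most of the CD4SP bars in nearly equal parts, while Klrd1 alone makes up 70.0% to 73.7% of the CD8SP bars.

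Within CD4SP iT cells the order of levels was Klrg1 and Klrd1, whose libraries overlapped, then Klrk1, then Klre1, Klrc1 and Klrb1c, of which neighbours overlapped, and Klrc2, Klrc3, Klra7 and Klra9 at 0. Within CD8SP iT cells Klrd1 was first and did not overlap with the next gene. Klre1, Klrc1, Klrk1 and Klrg1 followed, each overlapping its neighbour, then Klra9, Klrc2, Klrb1c and Klra7, again overlapping neighbour by neighbour, and Klrc3 at 0. Klrg1 was thus level with the first gene in CD4SP and at rank 5 in CD8SP.

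Genes of the same chromosomal interval were set beside the receptors, an interval chosen after the values were seen. Between the start of Klrb1c and the end of Klra7 the table held 40 genes, of which 21 were tested, 10 had a higher CD8SP call and 1 a higher CD4SP call, beside 1.80% and 7.92% of all tested genes. As 6 of those 10, with all 3 that are not among the receptors, were at 0 in every CD4SP library and passed the filter through CD8SP alone, the count is a description. Of the 13 tested genes there that are not among the 10 receptors, 3 were called higher in CD8SP (Gm15987, Klra5 and Klra6), 1 was called higher in CD4SP (BC064078) and 9 were not called. A list of 24 other genes of the NK gene complex, 21 of them in the table, gave 6 tested genes, with Klra5 and Klra6 called up in CD8SP and 0 called up in CD4SP. The list median was 0.97, and -0.0039 without those 2. Klrb1f was at 9.67, 2.90 and 12.3 TPM in CD4SP libraries against 4.56, 6.13 and 5.19 TPM in CD8SP replicates, overlapping between the groups. Klra4, Klra8, Klra17, Klrb1, Klrb1a, Klri1, Clec2g and Clec2e were at 0 in all 6 libraries.

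The bases upstream of the receptor genes were read because 7 of the genes were higher in the same population. RefSeq (GRCm38.p6) gave the 250 bases before a start site for 8 of the 10 genes, in 11 windows, with no entry matched for Klrd1 and Klrg1. Both strands were searched for TGTGGT (reverse complement ACCACA), the core bound by Runx factors, and for AGGTGTGA and its inner part GGTGTG, bound by T-box factors such as Eomes, and overlapping matches were counted. TGTGGT was in 7 of 11 windows, which belonged to 6 of the 8 genes, beside 14.0% of all 32851 windows of this length. The 14.0% is a share of windows and not of genes. The matches of Klrb1c, Klre1 and Klrc2, and the match of Klrc3 nearer the start, lay within the genes as annotated by GENCODE M21. AGGTGTGA was in 0 of the 8 genes beside 1.12% of all windows, and GGTGTG in 0 of the 8 beside 16.3%. Several windows overlap or are copies of each other, so they are not independent. A match of 6 letters is a description of the sequence and no evidence of binding. Upstream stretches that lie outside annotated exons are shown for Klrc1 and Klrk1, which hold TGTGGT, and for Klra7 and Klra9, which do not, with the match in capitals.
Klrc1 (chr6:129678974-129679223, minus strand): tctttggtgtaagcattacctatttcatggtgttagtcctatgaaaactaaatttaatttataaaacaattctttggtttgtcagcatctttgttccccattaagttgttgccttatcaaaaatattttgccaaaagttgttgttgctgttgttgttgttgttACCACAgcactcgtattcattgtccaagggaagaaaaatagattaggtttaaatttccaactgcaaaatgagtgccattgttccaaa
Klrk1 (chr6:129623865-129624114, minus strand): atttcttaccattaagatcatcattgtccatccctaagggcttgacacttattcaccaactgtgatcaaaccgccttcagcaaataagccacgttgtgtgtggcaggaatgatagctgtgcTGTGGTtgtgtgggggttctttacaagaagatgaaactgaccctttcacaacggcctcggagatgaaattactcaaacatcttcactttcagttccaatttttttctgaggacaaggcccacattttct
Klra7 (chr6:130233323-130233572, minus strand): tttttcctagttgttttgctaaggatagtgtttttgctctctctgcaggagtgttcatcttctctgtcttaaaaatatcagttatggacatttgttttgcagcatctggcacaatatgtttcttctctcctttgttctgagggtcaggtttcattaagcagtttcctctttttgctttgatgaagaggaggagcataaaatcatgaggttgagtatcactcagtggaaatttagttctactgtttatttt
Klra9 (chr6:130193113-130193362, minus strand): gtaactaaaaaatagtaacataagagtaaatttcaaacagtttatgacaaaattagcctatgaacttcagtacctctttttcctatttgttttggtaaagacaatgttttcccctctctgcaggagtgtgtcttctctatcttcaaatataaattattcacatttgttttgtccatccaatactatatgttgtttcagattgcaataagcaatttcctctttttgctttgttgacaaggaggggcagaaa
RefSeq gave 2 windows for Klra7. The one shown was identical to that of Klra9 at 82.8% of aligned positions, and the other at 68.9%. Klrc2 and Klrc3 were compared because 1 was detected in CD8SP and the other was at 0 everywhere. Of 2 windows for Klrc2, the one compared and that of Klrc3 agreed at 98.8% of aligned positions (246 of 249). Each held ACCACA at 76 and at 49 bases before the RefSeq start. By GENCODE M21 both matches of Klrc2 lay within the gene, as did the match of Klrc3 at 49 bases. The matches are not part of the stretches given below. The 97 bases of these windows that lie outside annotated exons and beyond a run of T are given here, with the base of Klrc3 that differs from Klrc2 in capitals.
Klrc2 (chr6:129660690-129660786, minus strand): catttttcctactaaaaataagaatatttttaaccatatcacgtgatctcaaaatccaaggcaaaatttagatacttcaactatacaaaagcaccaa
Klrc3 (chr6:129643422-129643518, minus strand): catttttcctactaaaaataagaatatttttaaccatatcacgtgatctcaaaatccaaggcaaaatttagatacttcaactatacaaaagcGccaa
These upstream sequences were nearly the same in Klrc2, listed at 7.07 to 11.04 TPM in CD8SP libraries, and in Klrc3, listed at 0. As reads can pass between these copies, how their level divides between the 2 genes is uncertain.

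Adaptors and signalling proteins of these receptors were compared to see whether they moved with them. Of 16 listed genes 14 were tested, with 0 called up in CD8SP and 2 in CD4SP, beside 1.80% and 7.92% of all tested genes. The list's median log2 fold change was -0.23 beside -0.28 for all tested genes. Hcst, the adaptor of Klrk1, was abundant in both groups, at 870, 1034 and 836 TPM in CD4SP libraries against 1148, 1129 and 1371 TPM in CD8SP replicates 1 to 3. Its groups did not overlap, and their log2 fold change was 0.41 (limma adjusted p = 0.0501). Hcst exceeded Klrk1 by 46.0 to 58.99 times in CD4SP and 25.3 to 49.9 times in CD8SP libraries. Tyrobp (DAP12), the adaptor of Klrc2 and of activating Ly49 receptors, was at 8.93, 7.49 and 9.54 TPM in CD4SP libraries against 8.68, 10.7 and 4.92 TPM in CD8SP replicates 1 to 3, and the groups overlapped. Its log2 fold change was -0.14 (adjusted p = 0.75), and rescaling turned its sign. The genes called higher in CD4SP were Ptpn11 (SHP-2), a phosphatase recruited by inhibitory receptors, at -1.02 (adjusted p = 0.0060), and Sh2d1a (SAP), an adaptor of SLAM receptors, at -1.06 (adjusted p = 0.0082). Both fell within 2-fold after either rescaling, with ribosomal protein genes removed and without CD8 replicate 3. Ptpn11 also did so without CD4 replicate 3, and Sh2d1a without CD4 replicate 2 and with library weights. Ptpn6 (SHP-1), a further phosphatase of this kind, was at 226 to 286 TPM in CD4SP libraries against 354 to 464 TPM in CD8SP, with a log2 fold change of 0.67 (adjusted p = 0.016) that stayed within 2-fold. Also within 2-fold, and lower in CD8SP by adjusted p alone, were Cd247 (CD3 zeta) at -0.72 (adjusted p = 0.0043), the adaptors Lcp2 (SLP-76) at -0.95 (adjusted p = 0.0066) and Grb2 at -0.68 (adjusted p = 0.016), and the phosphatase Inpp5d (SHIP-1) at -0.53 (adjusted p = 0.045). By adjusted p alone the list thus held 1 gene higher in CD8SP and 6 in CD4SP. Without CD4 replicate 2 and with library weights, Plcg2 gained a call in CD8SP and Lcp2 in CD4SP. Sh2d1b1, an adaptor of SLAM receptors in NK cells, was at 0 in all 6 libraries.

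The ligands of these receptors were also read in the same cells. Of 16 listed genes 8 were tested, with a median log2 fold change of -0.39. Of those, 1 was called higher in CD8SP and 0 in CD4SP, beside 1.80% and 7.92% of all tested genes. By adjusted p alone the list held 1 gene higher in CD8SP and 3 in CD4SP, the latter within 2-fold. These were H2-D1 at -0.63 (limma adjusted p = 0.033), H2-K1 at -0.56 (adjusted p = 0.011) and B2m at -0.52 (adjusted p = 0.0067). Their groups did not overlap. In other settings the adjusted p reached 0.28 for H2-D1 and 0.24 for H2-K1. Without CD4 replicate 1 the count in CD8SP was 2, as Clec2i, a ligand of Klrb1 receptors, went from 1.55 (limma adjusted p = 0.12) to 2.17 (adjusted p = 0.046). H2-T23, which encodes the Qa-1 ligand of the Klrd1 and Klrc dimers, was at 682, 474 and 155 TPM in CD4SP libraries against 280, 288 and 137 TPM in CD8SP replicates 1 to 3. Replicate 3 was the lowest of both groups and the groups overlapped (log2 fold change -0.72, adjusted p = 0.33). The value rested on single libraries, at -1.35 without CD4 replicate 3, where it was called (limma adjusted p = 0.047), and -0.28 without CD4 replicate 1. Cdh1 (E-cadherin), a ligand of Klrg1, was at 6.65, 4.87 and 7.97 TPM in CD4SP libraries against 17.2, 15.5 and 17.7 TPM in CD8SP replicates 1 to 3. It was called higher in CD8SP, with a log2 fold change of 1.27 and a standard error of 0.21 (limma adjusted p = 0.0052), in the population with less Klrg1. Of the Klrk1 ligands, Raet1b, Raet1c, Raet1d, Raet1e and H60c were at 0 in all 6 libraries, as was Cdh4. H60b was at 1.64 to 3.67 TPM over the 6 libraries with overlapping groups, Ulbp1 at 0.367 to 2.51 TPM, and Raet1a was above 0 in 2 CD8SP libraries, at 0.0997 and 0.871 TPM.

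Receptors of NK cells outside the lectin-like family were divided. Of 14 listed genes 13 were tested. Of those, 6 were called higher in CD8SP (Crtam, Pilrb1, Cd160, Slamf7, Lair1 and Cd244), 1 was called higher in CD4SP (Slamf6) and 6 were not called. Over all tested genes, 1.80% were called higher in CD8SP and 7.92% in CD4SP. The list's median log2 fold change was 0.61, and 0.19 without Pilrb1, which was at 0 in CD4SP. Crtam, a receptor for the adhesion protein Cadm1, was at 5.55, 9.39 and 6.07 TPM in CD4SP libraries against 87.0, 91.7 and 81.4 TPM in CD8SP replicates 1 to 3. Its log2 fold change of 3.48 had a standard error of 0.20 (limma adjusted p = 2.4e-05). Cd160 was at 22.6, 19.6 and 26.5 TPM in CD4SP libraries against 99.5, 105 and 61.1 TPM in CD8SP replicates 1 to 3, with a log2 fold change of 1.88 (adjusted p = 0.0011). Cd244 at 1.36 (adjusted p = 0.016) lost its call when CD4 replicate 3, CD8 replicate 1 or CD8 replicate 2 was left out or the latter pair was averaged, and Slamf6 at -1.001 (adjusted p = 0.0090) when CD4 replicate 1, CD4 replicate 3 or CD8 replicate 3 was. The Slamf6 call was also lost under both rescalings and with ribosomal protein genes removed.

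Among 20 listed transcription factors and regulators, 17 were tested. Of those, 1 was called higher in CD8SP and 4 higher in CD4SP (Ikzf2, Gata3, Prdm1 and Nfil3), beside 1.80% and 7.92% of all tested genes. The list's median log2 fold change was -0.41. Without CD4 replicate 1 the count in CD8SP was 2, with Ets1, which was at 230, 3.23 and 2.94 TPM in CD4SP libraries against 101, 108 and 105 TPM in CD8SP replicates 1 to 3 (log2 fold change 2.75, limma adjusted p = 0.17 with all libraries). Eomes, a T-box factor of memory CD8 T cells and NK cells, was at 10.6, 9.20 and 8.19 TPM in CD4SP libraries against 51.4, 55.4 and 49.9 TPM in CD8SP replicates 1 to 3. Its log2 fold change was 2.37 with a standard error of 0.16 (limma adjusted p = 5.5e-05), close in size to that of Klrd1. Tbx21 (T-bet), the other T-box factor of these cells, was at 11.5, 12.5 and 8.23 TPM in CD4SP libraries against 9.997, 9.11 and 12.4 TPM in CD8SP replicates 1 to 3, with overlapping groups. Its log2 fold change was -0.020 (adjusted p = 0.96) and turned sign under rescaling. The ratio of Eomes to Tbx21 was 0.735 to 0.996 in CD4SP and 4.02 to 6.08 in CD8SP libraries (exact two-sided permutation p = 0.1). The factors higher in CD4SP were led by Ikzf2 (Helios) at -2.79 (adjusted p = 5.4e-05) and Gata3 at -1.86 (adjusted p = 0.00038). Nfil3 lost its call under quantile normalization and without CD4 replicate 3.

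Genes of memory-phenotype CD8 T cells, on which several of these receptors are known, were described last. Of 22 listed genes 21 were tested, with a median log2 fold change of 0.97. Of those, 10 were called higher in CD8SP and 2 in CD4SP (Cd44 and Ly6c1), beside 1.80% and 7.92% of all tested genes. Cd44 and Ly6c1 fell within 2-fold after median-of-ratios rescaling, and Cd44 also after quantile normalization. Ly6c2 was at 172, 96.0 and 124 TPM in CD4SP libraries against 4343, 4303 and 3862 TPM in CD8SP replicates 1 to 3 (log2 fold change 5.02, adjusted p = 3.32e-06). Gzma (granzyme A) was at 39.8, 101 and 116 TPM in CD4SP libraries against 1471, 1497 and 1773 TPM in CD8SP replicates 1 to 3 (log2 fold change 4.33, adjusted p = 0.00014). Gzmm, Prf1, Ccl5, Xcl1, Nkg7 and Cd7 were also among those higher in CD8SP, with log2 fold changes from 1.78 (Cd7) to 3.40 (Gzmm). Il2rb, the beta chain of the IL-15 receptor, was at 87.3 to 108 TPM in CD4SP libraries against 106 to 117 TPM in CD8SP, with overlapping groups (log2 fold change 0.19, adjusted p = 0.30).

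**Figure D5:**
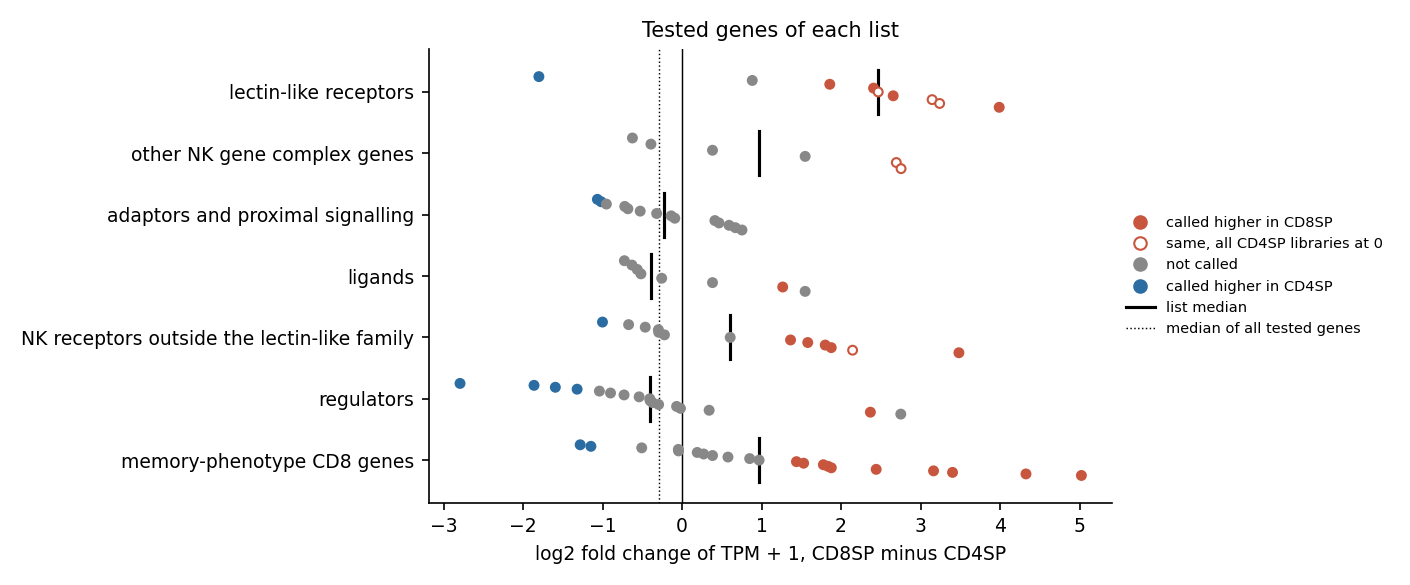
Log2 fold change of TPM + 1 (CD8SP minus CD4SP) for each tested gene of the 10 lectin-like receptors and of the 6 gene lists, with red for genes called higher in CD8SP, blue for CD4SP, grey for genes not called, open points for genes at 0 in all CD4SP libraries, black bars for list medians and a dotted line for the median of all tested genes. The receptor median is 2.47, and the medians of the other lists run from -0.41 for regulators to 0.97.

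As the sorting gate took donor-derived cells by CD4 or CD8 and used neither CD3 nor NK1.1, markers of NK cells were read beside the receptors. Of 12 NK markers 5 were tested and 1, Klrb1c itself, was called higher in CD8SP. Calls were made for 1.80% of all tested genes higher in CD8SP and for 7.92% higher in CD4SP. Ncr1 (NKp46), Klra8, Klra4, Itga2 and Cma1 were at 0 in all 6 libraries. Summed without Klrb1c, the markers were at 12.1 to 29.2 TPM in CD4SP libraries against 15.2 to 22.8 TPM in CD8SP libraries, and the groups overlapped. Markers of T cells summed to 6200 to 6338 TPM in CD4SP libraries against 5234 to 5881 TPM in CD8SP libraries. Zbtb16, the factor that defines NKT cells, was at 0 in all 6 libraries, and so was Sox13, a marker of gamma-delta T cells. Of 6 dendritic cell markers 5 were tested, 1 (Itgax) was called higher in CD8SP and 3 in CD4SP, and their sum was 91.3 to 116 TPM in CD4SP libraries against 45.2 to 54.5 TPM in CD8SP libraries. Itgax, which activated T cells can also express, was at 0.95, 0.083 and 0 TPM in CD4SP libraries against 18.02, 17.2 and 18.1 TPM in CD8SP libraries. Myeloid markers summed to 17.7 to 32.7 TPM in CD4SP libraries against 20.7 to 24.2 TPM in CD8SP libraries, with S100a8 and S100a9 at 0. Of 6 myeloid markers 2 were tested and called in opposite directions, Cd68 higher in CD8SP (log2 fold change 2.41, limma adjusted p = 0.013, and 0.056 without CD8 replicate 3, which lost the call) and Lyz2 higher in CD4SP (-1.68, adjusted p = 0.0087). The part of other cells in the receptor levels was not tested. In these bulk libraries, fewer cells with a transcript and less transcript per cell cannot be told apart.

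The genes whose pattern over the 6 libraries was most like the mean log2(TPM + 1) of the 9 tested receptors were Nedd4 (Pearson r 0.997), Pim2 (0.996), Ms4a4c (0.995), Fgf13 (0.994) and Urgcp (0.993). These correlations are a description over 6 libraries that form 2 groups. Nedd4 was at 2.98, 1.97 and 2.90 TPM in CD4SP libraries against 8.45, 8.38 and 9.87 TPM in CD8SP replicates 1 to 3. Pim2 was at 54.7, 49.9 and 50.05 TPM in CD4SP libraries against 106, 103 and 124 TPM in CD8SP replicates 1 to 3. In all 5 genes, as in the receptor mean, the CD8SP libraries were above the CD4SP libraries.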

How the data were processed

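RNA was measured in 6 libraries of 1000 sorted iT cells each, grouped by the sample titles. The authors amplified cDNA (Discover-sc WTA Kit V2), made TruePrep libraries, aligned reads to mm10 with HISAT2, estimated expression with StringTie and deposited TPM. How reads of near-identical genes were shared out and whether strand was used were not given in the sources used here. TPM keep no depth, so no counting interval or detection floor could be computed.

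From the deposited TPM, log2(TPM + 1) entered a limma model (version 3.58.1, R 4.3.3) that held the population alone, followed by eBayes with trend and Benjamini-Hochberg adjustment over 10476 genes, those reaching 1 TPM in 3 or more of the 6 libraries. This scale understates changes of low genes. A gene was called at an adjusted p under 0.05 and a change over 2-fold, the study's own criterion. No count test was run, as TPM are no counts. Sums and ratios were compared with exact two-sided permutation tests over the libraries. Copies were searched with blastn 2.17.0, as alignments of at least 95% identity over at least 200 nt between the longest transcript of each gene and annotated transcripts of other genes.

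The 10 genes, the gene lists and the marker lists were chosen with earlier results of these data known. By rule the text names each of the 10 genes and the 5 nearest in pattern, and may name called list members (up to 8 a list) and list members at 0 in all libraries. Hcst, Tyrobp, Ptpn6, H2-T23, H60b, Ulbp1, Raet1a, Tbx21, Il2rb, Klrb1f, Clec2i, Ets1, Cd247, Lcp2, Grb2, Inpp5d, Plcg2, Cd44, Ly6c1 and the further Klra and interval genes were named after their values were seen. So were H2-D1, H2-K1 and B2m. Settings varied were the pseudocount (0.1), the filter (none or 5 TPM), the scaling (median-of-ratios or quantile), the trend, weights for libraries, a replicate block, the Klrc genes as 1 row, no fold threshold and each library left out, and, chosen after seeing the data, CD8 replicates 1 and 2 averaged and ribosomal protein genes removed. A further gene of the marker lists is left out of the text.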

Additional observations from a re-analysis of the deposited data

How the results depend on the processing

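The receptors called were 8 as reported, 7 with a filter of 5 TPM (8 tested) and with the Klrc genes as 1 row (which counts once), and 8 or 9 in every other setting, with Klrg1 the 1 gene higher in CD4SP in each. Klrk1 gained a call under both rescalings (median-of-ratios and quantile) and without CD8 replicate 2. The other 8 tested receptors kept direction and call in every setting in which they were tested. Over all genes, 1019 calls (189 higher in CD8SP, 830 in CD4SP) became 301 and 489 after median-of-ratios rescaling, 333 and 444 after quantile normalization, and 2183 (338 and 1845) with no fold threshold, where the lists held 44 calls in place of 29. Rescaling moved the median gene from -0.28 to -0.00016 and quantile normalization to 0.015. With each library left out, all calls ran from 817 to 1202. The Tbx21 fold change was 0.26 by median-of-ratios, 0.34 by quantile scaling, 0.038 with CD8 replicates 1 and 2 averaged, 0.12 without ribosomal protein genes and -0.18 to 0.091 with a library left out. That of Tyrobp was 0.14, 0.23 and 0.0093 after rescaling, quantile normalization and library weights and -0.35 to 0.14 with a library left out. That of H60b was 0.088 by quantile scaling in place of -0.26. The cause was not tested.

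The replicate numbers gave no clear pairing of the libraries. Same-numbered deviations correlated at 0.052, -0.017 and 0.089, and only CD4SP replicate 3 matched its own number best. With 3 libraries a group, this cannot tell whether same-numbered libraries share an origin. With the replicate block 997 genes were called, 959 of them also called without it, the receptors called stayed at 8, and Klrk1 had an adjusted p of 0.051 from limma. The depth behind these TPM is unknown, so a receptor listed at 0 may have been present below detection.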
